A study of Mus musculus with 12 samples.

Results

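The replication-dependent histone genes are the clustered genes that supply histone proteins for newly copied DNA. They were taken as every row of the deposited table whose gene symbol starts with Hist1h, Hist2h, Hist3h or Hist4h. The rule gave 69 of 19716 genes: 6 for the linker histone H1, 19 for H2A, 19 for H2B, 12 for H3 and 13 for H4. By the cluster number in the symbol, 55 lie in cluster 1, 10 in cluster 2, 3 in cluster 3 and 1 in cluster 4. The RNA came from mouse embryonic stem cells (ESC) in which doxycycline (dox) switches on a transgene for AGO2, the Argonaute protein that binds small RNAs, tagged with HA and Flag. By the labels there are 12 libraries, 3 for each of nuclear and total (whole-cell) RNA from cells kept with or without dox. The drug was present at 2.5 ug/ml during 15 h, the cells were at passages 8 to 15 on gelatin with leukemia inhibitory factor, and every group carries the same inducible transgene. Neither clones nor separate cultures are named, so p-values measure the spread between libraries, which may be technical. The table holds a mean per group, with no value of a single library. All levels below are therefore the authors' group means taken back to RPKM (reads scaled to transcript length and library size), with no SD.

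Most mRNAs end in a poly(A) tail, but replication-dependent histone mRNAs are known to end just after a short stem-loop in their 3' untranslated region. The stem-loop binding protein SLBP holds this hairpin, and a complex with the U7 small nuclear ribonucleoprotein cuts the transcript behind it. H3 with H4, and H2A with H2B, form the histone core around which DNA is wrapped, and H1 sits on the DNA between cores. The genes are switched on together in S phase through NPAT at histone locus bodies, and ESC spend much of their cycle in S phase. Because the libraries were depleted of ribosomal RNA and not selected for poly(A), mRNAs without a tail could be sequenced.

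The hairpin is shown because it is the sequence that sets this gene family apart from other mRNAs. The search used a fixed pattern of 16 bases for the histone hairpin, with a stem of 6 and a loop of 4 bases. Other hairpins of that shape were not counted, so the shares hold for this pattern alone. It was found in the GENCODE M21 transcripts of 44 of 69 histone genes (63.8%) and of 7 of 55271 other genes (0.0127%). Examples of its forms follow, 5' to 3' on the transcript strand, with the loop in capitals and positions on mm10.
Hist1h1c, chr13:23739512-23739527, plus strand: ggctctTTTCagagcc
Hist1h3e, chr13:23561903-23561918, minus strand: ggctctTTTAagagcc
Hist2h2ac, chr3:96220418-96220433, minus strand: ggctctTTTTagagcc
Hist1h4h, chr13:23531458-23531473, plus strand: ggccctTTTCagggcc
Hist2h4, chr3:96262939-96262954, minus strand: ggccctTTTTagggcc
Hist1h4b, chr13:23757366-23757381, plus strand: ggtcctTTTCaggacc
The form of Hist1h1c was the most frequent, in 3 H1, 10 H2A, 8 H2B and 5 H3 genes. The stems of Hist1h4h (7 genes in that form), Hist2h4 (2 genes) and Hist1h4b (2 genes) occurred in H4 genes alone among the 44. Of the 25 genes without a match, 13 have transcripts annotated only as far as the stop codon, so the search had no sequence to read behind it.

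Promoter windows from RefSeq (GRCm38.p6), the 250 bases before the start, could be matched for 62 of 69 genes. The CCAAT box, read as CCAAT on either strand, was in 82.3% of them and in 34.5% of the windows of 27025 RefSeq genes. All 6 H1, 18 H2A and 16 H2B windows held it, against 8 of 10 H3 and 3 of 12 H4 windows. The octamer ATTTGCAT on either strand, the site of POU factors such as OCT1, was in 7 H2A and 6 H2B windows and in none of the H1, H3 or H4 windows (21% of members, 1.61% of all genes). TATAAA on either strand was in 46.8% of members and 13% of all genes. Matches of different motifs can share bases, each motif was counted on its own, and a match is a description of the window. Windows of facing H2A and H2B genes can overlap, as those of Hist1h2ai and Hist1h2bl do, so the same match can count for both genes. Printed below, 5' to 3' towards the gene with motif matches in capitals, are the windows of the most abundant H2A gene, of the most abundant H4 gene and of Hist2h2ac. The last is shown because it holds the whole stretch between the start sites of Hist2h2ac and Hist2h2be, whose levels lay far apart.
Hist1h2ai, chr13:21716162-21716411, plus strand: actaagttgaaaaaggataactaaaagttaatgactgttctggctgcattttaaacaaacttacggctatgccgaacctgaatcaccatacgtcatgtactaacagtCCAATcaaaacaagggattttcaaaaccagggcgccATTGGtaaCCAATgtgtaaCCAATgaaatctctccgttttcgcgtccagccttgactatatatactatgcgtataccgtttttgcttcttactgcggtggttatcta
Hist1h4h, chr13:23530794-23531043, plus strand: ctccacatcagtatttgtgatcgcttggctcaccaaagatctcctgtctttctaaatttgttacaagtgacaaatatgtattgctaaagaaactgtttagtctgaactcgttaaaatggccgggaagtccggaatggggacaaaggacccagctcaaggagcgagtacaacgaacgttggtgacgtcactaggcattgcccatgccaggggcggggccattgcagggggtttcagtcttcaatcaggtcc
Hist2h2ac, chr3:96220881-96221130, minus strand: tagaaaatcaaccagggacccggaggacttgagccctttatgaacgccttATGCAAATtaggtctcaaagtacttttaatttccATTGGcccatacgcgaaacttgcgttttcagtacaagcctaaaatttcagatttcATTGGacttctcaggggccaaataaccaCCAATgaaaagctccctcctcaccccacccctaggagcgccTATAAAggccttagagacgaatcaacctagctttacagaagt
The window of Hist1h2ai held 4 CCAAT matches and that of Hist1h4h held 0 matches of any of these motifs.

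The labels were checked before any direction was read. Ago2, the induced gene, goes against its label: in nuclear RNA its group mean was 2.39 RPKM with dox and 8.65 RPKM without dox, while total RNA had 3.43 RPKM with dox and 9.12 RPKM without dox. Each direction below therefore holds for the columns as they are labelled. The 9 ESC markers were all at 1 RPKM or more in every group (their sum was 731 and 285 RPKM in nuclear RNA with and without dox, and 824 and 394 RPKM in total RNA). Of these, 5 were called higher and 1 lower with dox in nuclear RNA (limma adjusted p below 0.05), beside 43.1% and 26.3% of all tested genes. In total RNA 7 were higher and 1 lower, beside 41.5% and 22.8% of all tested genes. The 4 fibroblast feeder markers and 7 markers of differentiated cells with rows were under 1 RPKM in every group. The columns labelled nuclear did not carry more of 5 nuclear RNAs as a sum, and Malat1 made up most of it. The sum was 81.2 RPKM in nuclear and 145 RPKM in total RNA with dox, and 494 and 658 RPKM without dox. Singly, 0 of the 5 were called higher and 2 lower in nuclear than in total RNA with dox. Without dox 1 (Meg3, log2 0.46, limma adjusted p = 0.0479) was higher and 1 lower. Of 4 abundant cytoplasmic mRNAs (Gapdh, Actb, Rplp0 and Eef1a1), 0 were higher in nuclear RNA, and 2 were lower with dox and 4 without. Among all tested genes 5.84% were higher and 34.8% lower with dox, and 4.01% and 34.7% without. The 5 nuclear RNAs were all lower with dox in both fractions, and the 4 cytoplasmic mRNAs were all higher (sums of 4128 and 917 RPKM in nuclear RNA with and without dox). The part of these shifts in the histone results was not tested. In bulk RNA, a change in the share of cells in S phase and a change in RNA per cell cannot be told apart.

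Histone mRNAs were among the most abundant RNAs of these cells, and far more so in the columns labelled dox. The median histone gene was at 269 RPKM in nuclear RNA with dox and 26.2 RPKM without dox, and at 156.5 RPKM in total RNA with dox and 31.6 RPKM without dox. A level of 100 RPKM or more was reached by 45 genes in nuclear RNA with dox and 8 without, and by 43 in total RNA with dox and 7 without. At 1000 RPKM or more there were 9 genes in nuclear and 6 in total RNA with dox, and 0 in either fraction without dox. The summed group means of the 69 genes made up 9.98% of the whole table in nuclear RNA with dox against 1.92% without, and 6.92% in total RNA with dox against 1.93% without.

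The classes held similar shares of the histone sum in every group. H4 genes summed to 9358 RPKM in nuclear RNA with dox and 901 RPKM without dox, and to 6576 and 996 RPKM in total RNA with and without dox. H3 genes followed, with 7541 and 823 RPKM in nuclear and 5153 and 852 RPKM in total RNA with and without dox. The H2A sum was 4767 and 505 RPKM in nuclear and 3328 and 609 RPKM in total RNA with and without dox. These core histones outweighed the fourth, H2B, whose sum was 2643 and 273 RPKM in nuclear and 1518 and 297 RPKM in total RNA with and without dox. The 6 H1 genes summed to 4427 and 482 RPKM in nuclear and to 3131 and 468 RPKM in total RNA with and without dox. H4 thus held between 30.2% and 33.4% of the histone sum in each of the 4 groups and H2B between 7.70% and 9.22%. As folds of these sums, nuclear RNA gave 9.17 for H3 to 10.4 for H4, and total RNA gave 5.11 for H2B to 6.69 for H1. Of the 18 protein-coding H2A genes, 9 encode the same protein; the 8 of them that were tested ran from 27.6 to 1722 RPKM in nuclear RNA with dox and from 2.75 to 178.5 RPKM without. Within a class a few genes carried the sum: the 3 highest members held 50.7% of the H2B and 79.1% of the H1 sum in nuclear RNA with dox.

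**Figure D1:**
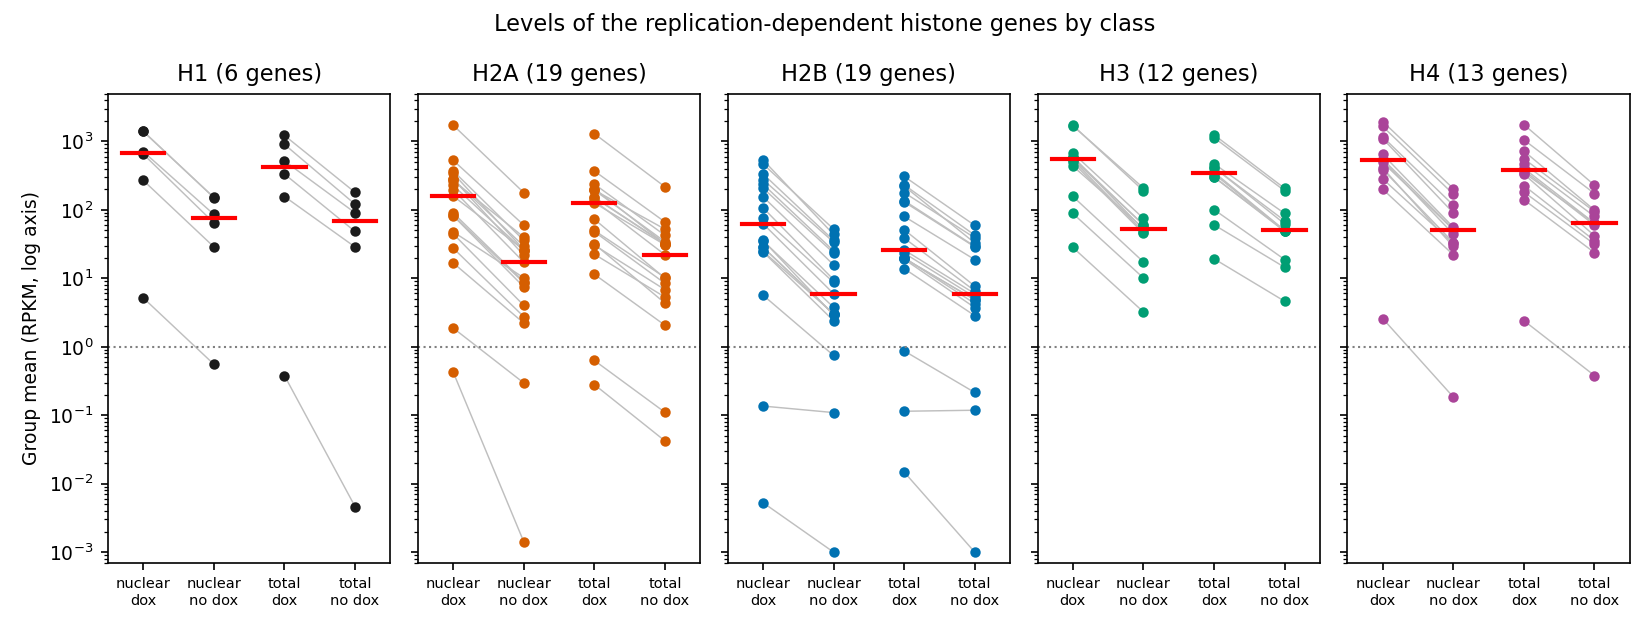
Group mean of each of the 69 histone genes in RPKM (log axis), by class, with dox left of no dox for each fraction; grey lines join a gene's values, red bars are class medians, the dotted line is 1 RPKM, and values under 0.001 are drawn there. Nearly all lines fall from dox to no dox in parallel, and the H2B gene near 0.1 RPKM (Hist2h2be) stays level.

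Setting dox against no dox in the nuclear columns asks what changed among nuclear RNAs on induction, and the total columns ask the same of whole cells. Of the 66 tested histone genes (1 RPKM or more in at least 1 group), 64 rose in nuclear RNA and 0 fell, called by limma where the p adjusted by Benjamini-Hochberg over all 10197 tested genes was below 0.05. Of the 66, 3 passed the filter through the nuclear dox column alone and 1 through the dox columns alone. Among all tested genes 43.1% were called higher and 26.3% lower. In total RNA 65 of the 66 rose and 0 fell, where 41.5% of all genes were called higher and 22.8% lower. The median log2 difference of the histone genes was 3.25 in nuclear RNA (all genes 0.28) and 2.52 in total RNA (all genes 0.26). The histone medians were 3.10 and 2.33 with each group centred on its own median gene, and 1.68 and 1.502 with quantile normalization, under which 64 and 66 genes were called higher (34.8% and 34.7% of all genes). Of the 100 genes with the largest difference, 62 in nuclear and 53 in total RNA were histone genes. Their spread was narrow: the SD of the difference over genes was 0.27 in each fraction without Hist1h1t and Hist1h2aa, where the median SE of a single gene was 0.14.

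**Figure D2:**
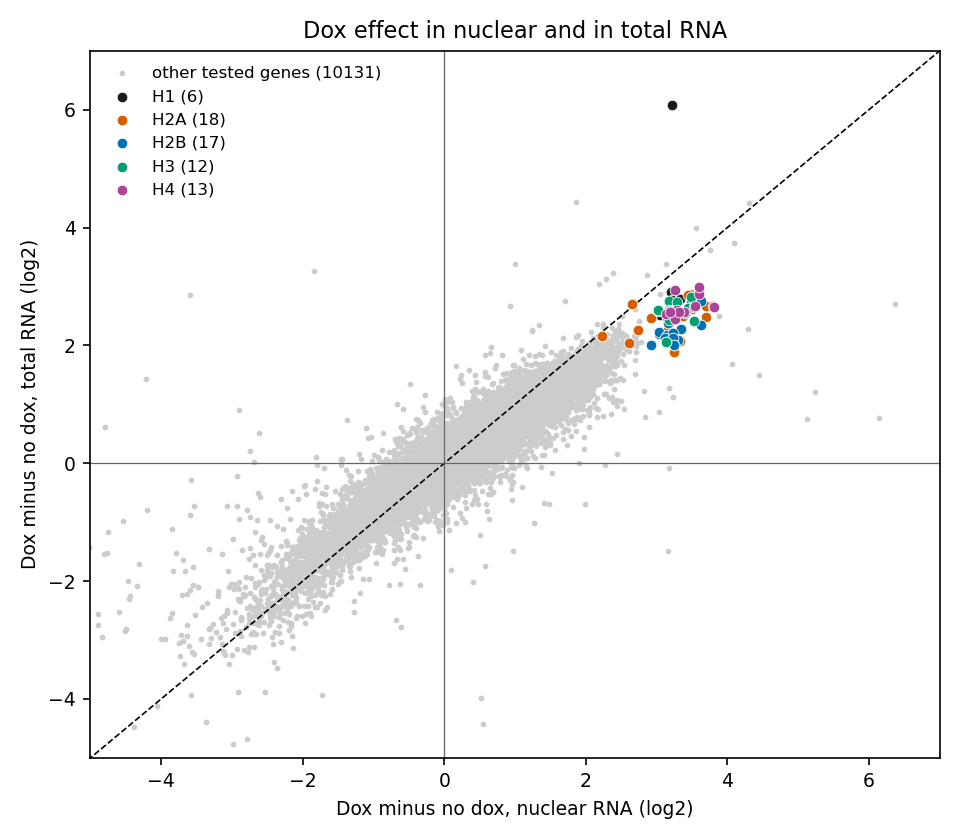
Log2 difference, dox minus no dox, in nuclear RNA (x axis) and total RNA (y axis) for the 66 tested histone genes coloured by class and for the other tested genes in grey (91 lie outside the axes); the dashed line marks equal differences. The histone genes form a cluster at the upper right, nearly all below the dashed line, and the H1 point high above it is Hist1h1t.

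H1, the linker histones, are encoded by 6 genes for 6 different proteins. Hist1h1c, which encodes H1.2, had 1398 RPKM with dox and 151 RPKM without dox in nuclear RNA, and 1221 and 179.9 RPKM in total RNA with and without dox. It rose 9.28-fold in nuclear RNA (log2 3.21, SE 0.10, limma adjusted p = 1.04e-10) and 6.79-fold among total RNA (log2 difference 2.76 with the same SE, adjusted p = 1.14e-09). Hist1h1a, for H1.1, was as abundant in nuclear RNA, with 1397 RPKM with dox and 152 RPKM without dox. In total RNA it had 903 RPKM with dox and 121 RPKM without dox, a 7.48-fold rise. Hist1h1b (H1.5) had 650 RPKM with dox and 64.5 RPKM without dox in nuclear RNA, the largest H1 rise there at 10.1-fold, and 333 against 48.3 RPKM in total RNA. Hist1h1d (H1.3) had 708 and 85.6 RPKM in nuclear and 517 and 90.4 RPKM in total RNA with and without dox, and its nuclear rise of 8.27-fold was the smallest of the class. Hist1h1e (H1.4) had 269 and 28.7 RPKM in nuclear and 156.5 and 28.7 RPKM in total RNA with and without dox; its total rise of 5.46-fold was the smallest of the class. The 5 somatic H1 genes thus moved within a range of 3.05 to 3.33 on the log2 scale in nuclear RNA.

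Hist1h1t encodes the testis H1 and stood far below those 5 in level. It had 5.17 RPKM with dox and 0.555 RPKM without dox in nuclear RNA, and 0.379 and 0.00464 RPKM in total RNA with and without dox. The nuclear levels stand for about 50.9 and 8.73 reads a library, and the total levels for about 3.93 and 0.0677. Its nuclear difference (log2 3.22, SE 1.65) was not called by limma (adjusted p = 0.0995), and its total difference, the largest of the 66 tested genes on the log2 scale (6.07, SE 1.65), was called (adjusted p = 0.00577). That value rests on libraries with almost no reads: with 1 RPKM added to the group means it was 0.46, and without moderation of the variances it was not called (adjusted p = 0.0621).

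H2A genes rose with a median log2 difference of 3.27 in nuclear and 2.48 in total RNA, and 17 of 18 tested were called in each. Hist1h2ai, the most abundant, had 1722 RPKM with dox and 178.5 RPKM without dox in nuclear RNA, and 1295 and 217 RPKM in total RNA with and without dox. It rose 9.65-fold in nuclear RNA (log2 3.27, SE 0.10, limma adjusted p = 1.04e-10) and 5.96-fold among total RNA (log2 2.58 with the same SE, adjusted p = 1.76e-09). The largest nuclear rise of the class was that of Hist1h2ab, with 341 RPKM with dox and 26.2 RPKM without dox (log2 3.70, SE 0.19). The smallest nuclear rise of the 66 tested genes was that of Hist2h2ab in cluster 2, with 47.8 RPKM with dox and 10.2 RPKM without dox in nuclear RNA and 30.5 and 6.83 RPKM in total RNA with and without dox. It rose 4.69-fold in nuclear and 4.47-fold in total RNA (log2 2.23 and 2.16, SE 0.18; limma adjusted p = 2.35e-07 and 4.76e-07). In total RNA the range ran from Hist1h2ap, with 194 RPKM with dox and 52.2 RPKM without dox (log2 1.89, SE 0.29), to Hist1h2al, with 31.8 and 4.34 RPKM (log2 2.87, SE 0.15). Hist1h2al is annotated as a processed pseudogene and shares 67.6% of its 50-base words with other genes, most of them with Gm20634.

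Hist1h2aa, the H2A gene known from testis, was the single tested member called in neither fraction. It had 1.88 RPKM with dox and 0.297 RPKM without dox in nuclear RNA, and 0.281 and 0.0422 RPKM in total RNA with and without dox. These levels stand for at most about 7.9 reads a library. Its log2 differences of 2.66 and 2.71 carried an SE of 1.85 (limma adjusted p = 0.214 and 0.215). Its divergent neighbour Hist1h2ba, the testis H2B gene, was higher, with 24.4 RPKM with dox and 2.40 RPKM without dox in nuclear RNA and 13.8 and 2.85 RPKM in total RNA with and without dox. Hist1h2ba shares 38.2% of its 50-base words with other genes, Hist1h2bj first among them, so part of its reads may not be its own.

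H2B genes had a median log2 difference of 3.23 in nuclear RNA, near the other classes, and of 2.21 in total RNA, the lowest median of the 5 classes; all 17 tested were called in each. Hist1h2bk, the most abundant, had 467 RPKM with dox and 52.4 RPKM without dox in nuclear RNA, and 308 and 59.1 RPKM in total RNA with and without dox. It rose 8.92-fold in nuclear (log2 3.16, SE 0.16, limma adjusted p = 4.64e-09) and 5.21-fold among total RNA (log2 2.38 with the same SE, adjusted p = 7.85e-08). The largest nuclear rise was that of Hist1h2bp (log2 3.63, SE 0.35), with 35.8 RPKM with dox and 2.90 RPKM without dox. Hist2h2bb rose almost as much there (log2 3.62, SE 0.11), at a higher level: 536.5 RPKM with dox and 43.7 RPKM without dox. It also had the largest rise of the class in total RNA, with 222 RPKM with dox and 32.9 RPKM without dox (log2 2.75, SE 0.11). The smallest nuclear rise was that of Hist3h2ba, described with cluster 3 below. Hist1h2bq and Hist1h2br had identical values in all 4 groups (28.4 and 3.00 RPKM in nuclear and 19.5 and 4.87 RPKM in total RNA with and without dox), the smallest total rise of the class (log2 2.01, SE 0.23).

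H3 genes rose with a median log2 difference of 3.18 in nuclear and 2.59 in total RNA, and all 12 were called in both. Hist1h3e, the most abundant, had 1712 RPKM with dox and 189.9 RPKM without dox in nuclear RNA, and 1247 and 206 RPKM in total RNA with and without dox. It rose 9.02-fold in nuclear (log2 3.17, SE 0.09, limma adjusted p = 9.75e-11) and 6.05-fold among total RNA (log2 2.60 with the same SE, adjusted p = 9.57e-10). The nuclear rises ran from Hist1h3b, with 1684 RPKM with dox and 208 RPKM without dox (log2 3.02, SE 0.11), to Hist1h3c, with 595 and 51.6 RPKM (log2 3.53, SE 0.12). In total RNA Hist1h3i rose most, with 354 RPKM with dox and 50.1 RPKM without dox (log2 2.82, SE 0.12), and Hist2h3c1 and Hist2h3c2 least (log2 2.06, SE 0.22 each). By their translated GENCODE reading frames, Hist1h3a, Hist1h3g, Hist1h3h and Hist1h3i encode 1 protein, known as H3.1, and Hist1h3b to Hist1h3f with Hist2h3b encode another, known as H3.2. The 4 H3.1 genes lay between 435 and 554 RPKM in nuclear RNA with dox and between 45.5 and 60.7 RPKM without. The 6 genes of the H3.2 group were spread from 157 to 1712 RPKM with dox and from 17.3 to 208 RPKM without. Hist2h3c1 and Hist2h3c2 fell outside both groups because their longest reading frame was read as 181 residues, so the H3.2 group may be incomplete. They lay lower in nuclear RNA, at 28.2 and 88.45 RPKM with dox and 3.22 and 10.1 RPKM without. Median nuclear log2 differences were 3.31 for the 4 H3.1 genes and 3.18 for the 6 of the H3.2 group, and in total RNA 2.62 and 2.59.

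H4 genes had the largest class median in nuclear RNA, a log2 difference of 3.39, with 2.66 in total RNA, and all 13 were called in both. All 13 encode the same protein, so they can differ in promoters, untranslated ends and coding bases that leave the protein unchanged, but not in what they make. Hist1h4h, the most abundant histone gene of the table, had 1948 RPKM with dox and 204 RPKM without dox in nuclear RNA, and 1757 and 229 RPKM in total RNA with and without dox. It rose 9.54-fold in nuclear (log2 3.25, SE 0.10, limma adjusted p = 1.04e-10) and 7.67-fold among total RNA (log2 2.94 with the same SE, adjusted p = 9.57e-10). The largest nuclear rise of the 66 tested genes was that of Hist1h4n, with 408 RPKM with dox and 29.2 RPKM without dox (log2 3.81, SE 0.19, limma adjusted p = 4.02e-09). In total RNA Hist1h4n had 377 RPKM with dox and 59.8 RPKM without dox (log2 2.66, SE 0.19). The smallest nuclear rise of the class was that of Hist1h4b, with 283 RPKM with dox and 32.3 RPKM without dox (log2 3.13, SE 0.14). In total RNA Hist2h4 rose most, with 332.5 RPKM with dox and 41.9 RPKM without dox (log2 2.99, SE 0.10), and Hist1h4f least, with 349.5 and 64.0 RPKM (log2 2.45, SE 0.13).

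**Figure D3:**
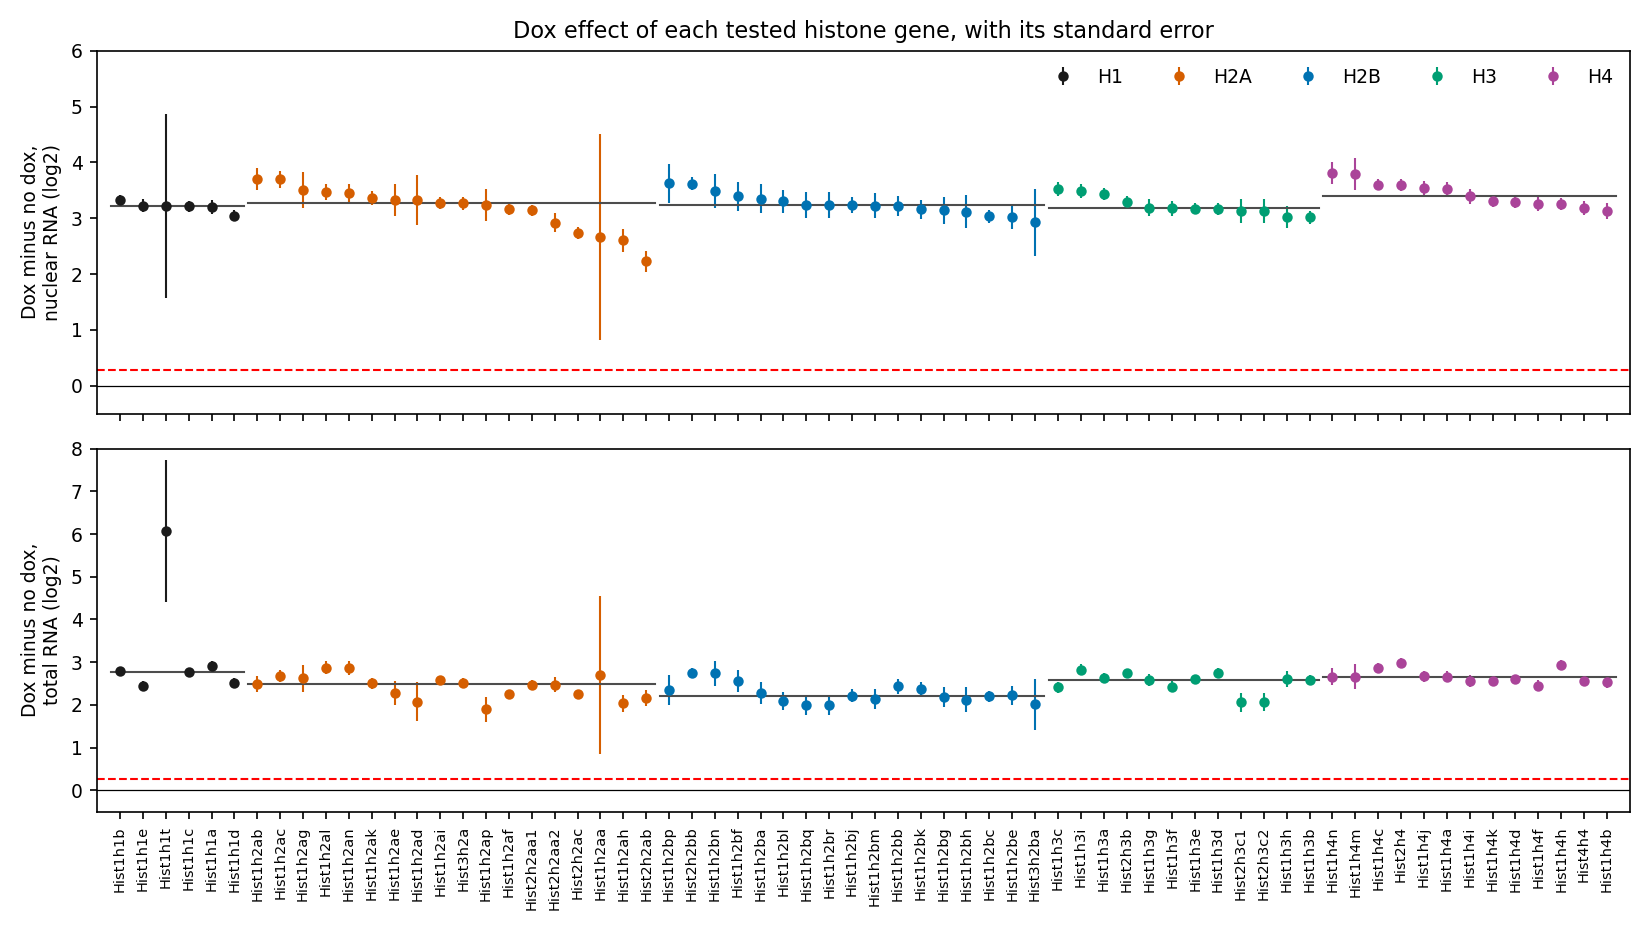
Log2 difference, dox minus no dox, of each tested histone gene in nuclear RNA (upper panel) and total RNA (lower panel), ordered within a class by the nuclear value; bars are limma standard errors, grey lines class medians and the red dashed line the median of all tested genes. All points lie above the red line in both panels, and only Hist1h1t, Hist1h2aa and, less so, Hist3h2ba and Hist1h2ad carry wide errors.

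Hist1h2ao, Hist2h2be and Hist3h2bb-ps never reached 1 RPKM and were not tested. Hist2h2be, an H2B gene described in mouse olfactory neurons, had 0.136 RPKM with dox and 0.109 RPKM without dox in nuclear RNA, and 0.114 and 0.118 RPKM in total RNA with and without dox. Its levels stand for about 3.85 and 4.94 reads a library in nuclear RNA with and without dox. With no filter on low values its log2 difference was 0.31 in nuclear (SE 0.71, limma adjusted p = 0.797) and -0.05 in total RNA, neither of them called. Its start site lies 239 bases from that of Hist2h2ac on the opposite strand, the stretch printed above. Hist2h2ac had 267.5 RPKM with dox and 40.0 RPKM without dox in nuclear RNA and rose 6.68-fold (log2 2.74, SE 0.11, limma adjusted p = 4.32e-10). Hist1h2ao reached 0.631 RPKM at most, and Hist3h2bb-ps, annotated as a pseudogene, 0.0148 RPKM. Since Hist1h2ao shares 93.5% of its 50-base words with Hist1h2ap (280 RPKM in nuclear RNA with dox), reads of the 2 genes may not be told apart.

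H2A and H2B genes often face each other across a shared stretch: 13 such pairs had start sites 173 to 306 bases apart (median 251), and 1 further pair joined Hist1h2bh to Hist1h3f at 660 bases. Partners could differ widely in level. Hist1h2ai had 1722 RPKM and its partner Hist1h2bl 155 RPKM in nuclear RNA with dox, against 178.5 and 15.7 RPKM without dox. Their nuclear log2 differences were 3.27 and 3.30. Hist1h2ai shares 90.1% and Hist1h2bl 82.8% of its 50-base words with other genes, so part of the reads of each may not be its own. Over the H2A and H2B pairs with both partners tested, the median distance between the partners' log2 differences was 0.18 in nuclear and 0.42 in total RNA.

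Medians lay close together across the genomic clusters. Cluster 1 on chromosome 13 (mm10) falls into a block of 23 genes from 21715763 to 22043676, a block of 31 genes from 23531050 to 23934851, and Hist1h2al alone at 51202727 to 51203065. The median nuclear log2 differences were 3.32 and 3.22 in those blocks and 3.47 for Hist1h2al, and in total RNA 2.56, 2.53 and 2.87. Cluster 2 on chromosome 3 (96219865 to 96270132) had medians of 3.13 in nuclear and 2.47 in total RNA over 9 tested genes, all called. Cluster 1 held 89.8% of the histone sum with and without dox in nuclear RNA and 90.8% to 90.9% in total RNA, and cluster 2 held 9.17% and 8.19% there. In cluster 3 on chromosome 11 (58948920 to 58956830), Hist3h2a had 83.0 RPKM with dox and 8.64 RPKM without dox in nuclear RNA, and 47.9 and 8.44 RPKM in total RNA with and without dox. It rose 9.61-fold in nuclear and 5.68-fold in total RNA (log2 3.27 and 2.50, SE 0.11; limma adjusted p = 2.14e-10 and 4.10e-09). Hist3h2ba, upstream of it on the same strand, had 5.67 RPKM with dox and 0.746 RPKM without dox in nuclear RNA, and 0.870 and 0.215 RPKM in total RNA with and without dox. It rose 7.59-fold in nuclear RNA (log2 2.92, SE 0.59, limma adjusted p = 6.60e-04) and 4.03-fold among total RNA (log2 2.01 with the same SE, adjusted p = 0.00927). The total call was lost with no filter on low values (adjusted p = 0.0524) and with no moderation (0.0762). Hist4h4, the lone gene of cluster 4 on chromosome 6 (136801553 to 136804415), had 200 RPKM with dox and 22.03 RPKM without dox in nuclear RNA and 140.5 and 23.7 RPKM in total RNA with and without dox. It rose 9.08-fold and 5.92-fold (log2 3.18 and 2.57, SE 0.12), close to the family medians.

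Medians also lay close together when genes were grouped by the annotated end of the transcript. Genes with the stem-loop within 100 bases of the annotated end (21 tested) had a median nuclear log2 difference of 3.25. Those whose annotation runs on by more than 100 bases behind the stem-loop (22 tested) had 3.20, and those ending at the stop codon (13 tested) 3.33. The remaining genes without a stem-loop, whose annotation does not end at a stop codon (10 tested), had 3.22. They include the pseudogene Hist1h2al, which has no protein-coding transcript. In total RNA these medians were 2.47, 2.54, 2.61 and 2.42.

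Near-identical copies limit how far single genes can be read, including ranks and ranges of level within a class. Words of 50 bases that occur in another GENCODE gene made up at least 50% of the sequence in 33 members, and under 10% in 9. The tested genes with under 50% had medians of 3.23 in nuclear and 2.51 in total RNA (34 tested, 32 and 33 called), and those with at least 50% had 3.26 and 2.54 (32 tested, all called). Beside Hist1h2bq and Hist1h2br, Hist2h3c1 and Hist2h3c2 kept a fixed ratio of 3.13 in all 4 groups, and Hist1h4n stood at 158 times Hist1h4m to within 0.02 on the log2 scale. The members of these 3 pairs are not separate measurements. Hist1h4m itself was at 2.58 RPKM with dox and 0.185 RPKM without dox in nuclear RNA. Whether the counting used strand is not given in the sources used here, so overlapping genes on opposite strands cannot be told apart.

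Level and length were set beside the rise, since both moved with it among other genes. Level here is the mean of all 4 groups, dox columns included, so a gene that rises with dox also ranks higher in level. Other genes of at least 100 RPKM on average (136) had a median nuclear log2 difference of 1.87, those of 10 to 100 RPKM (1670) 1.13 and those under 10 RPKM (8141) 0.09. In total RNA the same medians were 1.36, 0.98 and 0.12. Histone genes of at least 100 RPKM (38) had medians of 3.26 and 2.58, and those of 10 to 100 RPKM (23) had 3.25 and 2.22. Other genes with under 1000 bases of exon (415) had medians of 0.57 in nuclear and 0.34 in total RNA, where the 49 histone genes of that length had 3.29 and 2.56. The 17 histone genes of 1000 bases or more had 3.18 and 2.45. Once the trend on exon length was taken out, the histone medians were 3.00 and 2.47 and 64 and 65 genes were called, beside 47.3% and 46.1% of all genes called higher. By depths inferred from the steps of low values, the 5 dox libraries among the 10 fitted were shallower (10.3 to 11.8 M reads) than the 5 without dox (15.3 to 18.9 M reads), and the part of depth in the result was not tested.

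**Figure D4:**
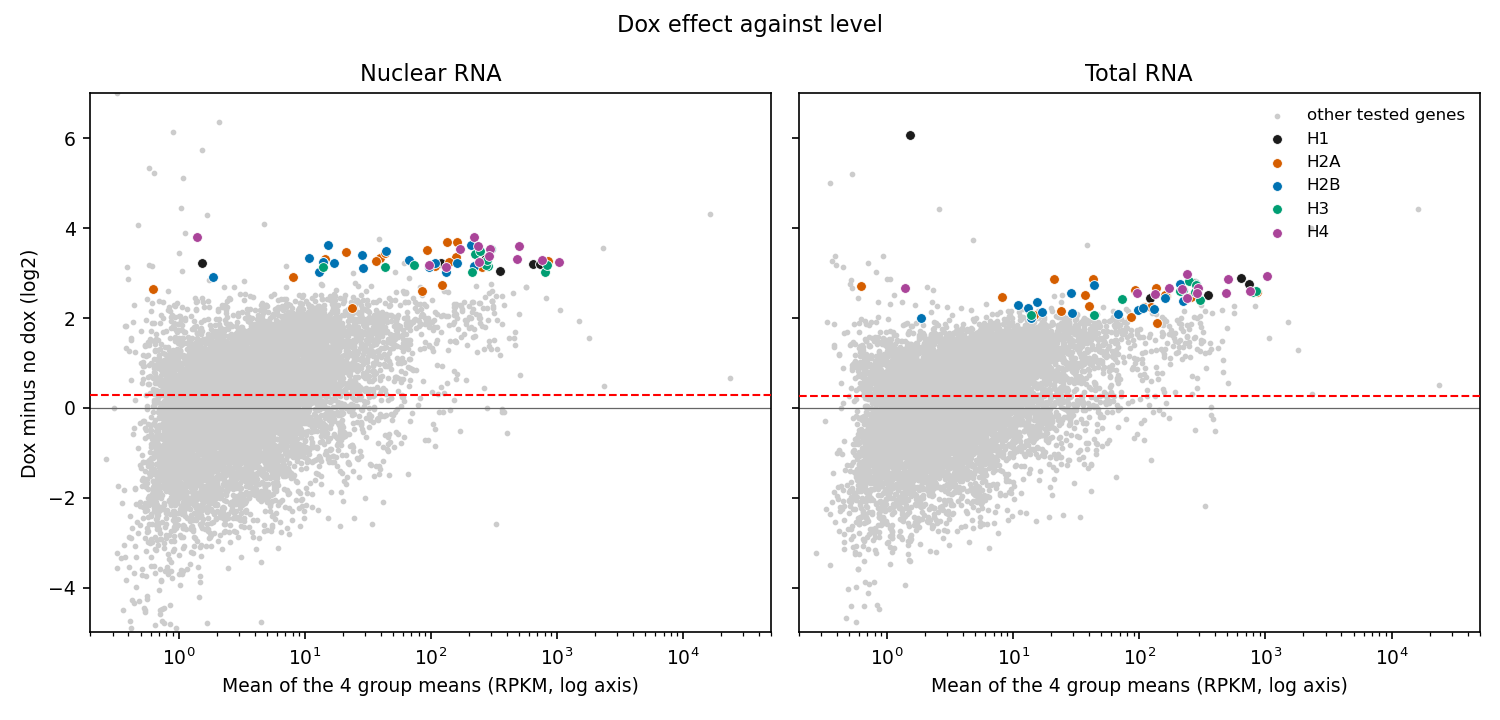
Log2 difference, dox minus no dox, against the mean of the 4 group means (RPKM, log axis) in nuclear RNA (left) and total RNA (right); histone genes are coloured by class, other tested genes are grey and the red dashed line is their joint median with the histone genes. Grey points climb with level, which itself includes the dox columns. Each histone gene lies above at least 97.3% of all tested genes in nuclear and 97.7% in total RNA.

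The dox difference was larger in nuclear than in total RNA for 64 of 66 histone genes, but limma called 0 of them after adjustment, as it called 0% of all genes in either direction. The median difference of the log2 differences was 0.78, where all genes had 0.00. At an unadjusted p below 0.05 stood 54 of 66 histone genes, all with the larger rise in nuclear RNA, and 1338 of 10197 genes (13.1%). The smallest adjusted p of any gene was 0.0557, reached by Hist1h2af and Hist1h3c among the histone genes. Hist1h2af had a log2 difference of 3.16 in nuclear and 2.26 in total RNA (difference 0.90, SE 0.14). Hist1h3c had 3.53 in nuclear and 2.41 in total RNA (difference 1.12, SE 0.18). When genes of at least 5 RPKM in 1 group were tested, 27 of 64 histone genes were called, all larger in nuclear RNA, where 2.23% of the 4895 genes tested were called larger and 0.245% smaller. By class the median was 0.96 in H2B, 0.75 in H4, 0.73 in H2A, 0.64 in H3 and 0.49 in H1. Hist1h2ap had the widest gap (1.35, SE 0.40), and Hist2h2ab, whose rise was small in both, a gap of 0.07 (SE 0.26). The exceptions were Hist1h1t and Hist1h2aa, with gaps of -2.86 (SE 2.34) and -0.05 (SE 2.61).

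The comparison of nuclear with total RNA asks where the RNA lies. Its limit, given above, is that 5 nuclear RNAs as a sum were not higher in the columns labelled nuclear. With dox, 47 of 66 histone genes were higher in nuclear RNA and 0 lower (limma adjusted p below 0.05), where 5.84% of all genes were called higher and 34.8% lower. Their median log2 difference was 0.59, against -0.32 for all genes. Hist2h2bb stood at 536.5 RPKM in nuclear and 222 RPKM in total RNA with dox (log2 1.27, SE 0.11). Hist1h4m, Hist1h4n and Hist1h4h lay lowest, with log2 differences of 0.10, 0.11 and 0.15, and Hist1h4h had 1948 RPKM in nuclear and 1757 RPKM in total RNA. Hist1h1t (3.77), Hist1h2aa (2.74) and Hist3h2ba (2.70) lay highest, and of these Hist3h2ba was called (SE 0.59, limma adjusted p = 0.0032) and the other two were not. All 3 reached 1 RPKM in nuclear RNA with dox alone, so the filter itself favours their place at this end. With the length trend removed 24 of the genes were called higher, beside 5.53% of all genes tested that way.

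Without dox the picture was mixed: 9 histone genes were higher and 12 lower in nuclear RNA, where 4.01% of all genes were called higher and 34.7% lower. The median log2 difference was -0.16, against -0.31 for all genes. This split depends on the scaling, since it was 16 higher and 2 lower with means centred on the median gene and 29 higher and 1 lower with quantile normalization. All genes had 11.3% higher and 15.4% lower, and 18.2% higher and 17.7% lower, under those scalings. Hist1h4n had 29.2 RPKM in nuclear and 59.8 RPKM in total RNA without dox (log2 -1.04, SE 0.19, limma adjusted p = 0.00106), and Hist1h4m moved with it. Hist1h2ad had 2.75 RPKM in nuclear and 5.32 RPKM in total RNA without dox, a difference that was not called (log2 -0.95, SE 0.45, adjusted p = 0.117). Hist1h3c, with 51.6 RPKM in nuclear and 88.6 RPKM in total RNA without dox, was called lower (log2 -0.78, SE 0.12, adjusted p = 3.48e-04). Hist2h2bb went the other way, with 43.7 RPKM in nuclear and 32.9 RPKM in total RNA (log2 0.41, SE 0.11, adjusted p = 0.011). Hist1h1t (6.62, SE 1.65, adjusted p = 0.00673) and Hist3h2ba (1.79, SE 0.59, adjusted p = 0.0294) were called higher at very low levels, and Hist1h2aa (2.78, SE 1.85, adjusted p = 0.26) was not. Of the 6 H1 genes 3 were called higher in nuclear RNA without dox and 0 lower, and of the 18 tested H2A genes 2 higher and 6 lower. The 3 H1 genes were Hist1h1b (limma adjusted p = 0.00291), Hist1h1a (0.0495, just under the threshold) and Hist1h1t, which had almost no reads in total RNA.

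**Figure D5:**
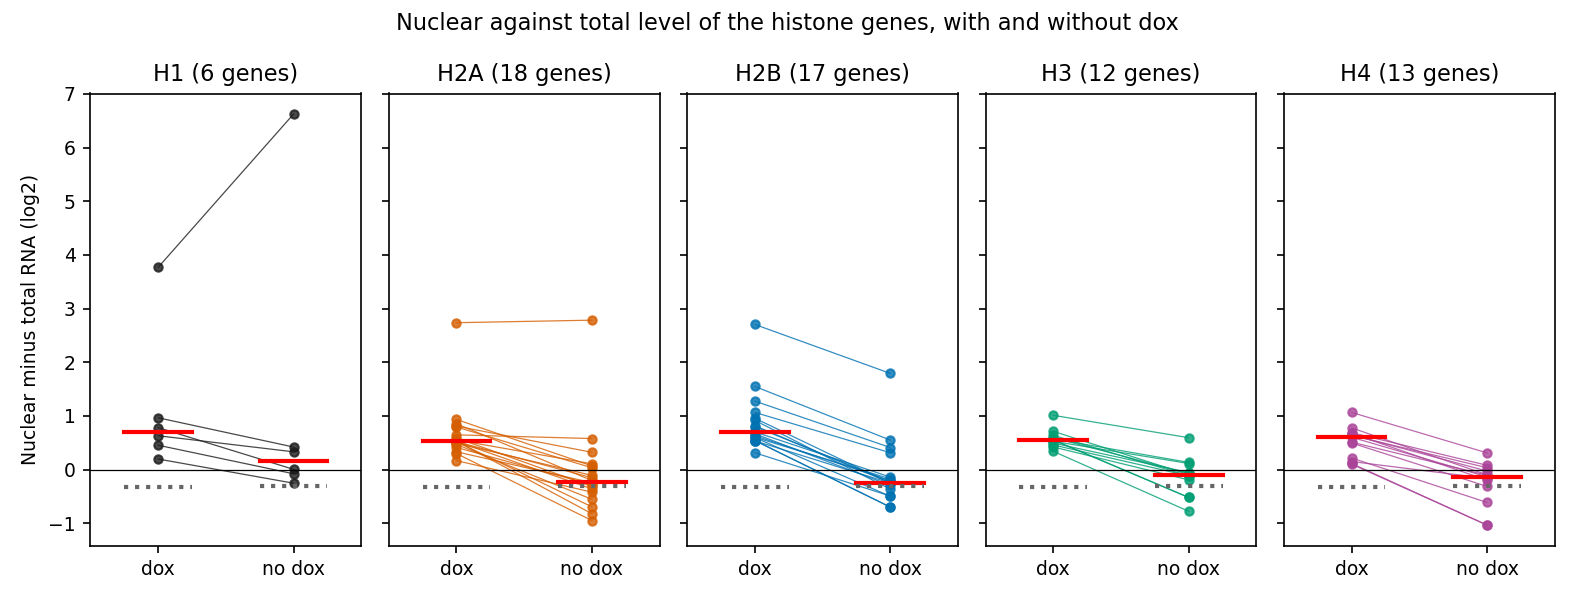
Log2 difference, nuclear minus total RNA, of each tested histone gene with dox (left of each panel) and without dox (right), by class; lines join a gene's values, red bars are class medians and grey dotted bars the median of all tested genes. With dox all points lie above 0, and without dox they straddle it, H1 highest by class median.

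The factors that make and use histones had smaller median differences than the histone genes. Of 32 tested factors of histone mRNA 3' processing and of histone promoters, 21 rose and 4 fell with dox in nuclear RNA (median log2 0.74) and 20 rose and 3 fell in total RNA (median 0.70). All genes tested had 43.1% higher and 26.3% lower in nuclear RNA, and 41.5% higher and 22.8% lower in total RNA. Slbp had 7.10 RPKM with dox and 4.29 RPKM without dox in nuclear RNA, and 9.43 and 5.92 RPKM in total RNA with and without dox, a rise of 1.66-fold and 1.59-fold (limma adjusted p = 2.09e-04 and 4.57e-04). Lsm10, a U7-specific ring protein, had 2.78 RPKM with dox and 0.585 RPKM without dox in nuclear RNA and rose 4.75-fold, and Snrpb, a ring protein shared with spliceosomal particles, rose 4.04-fold. The promoter factors of the list did not move as a group in nuclear RNA. Ccne1 (2.88-fold), Nfyc (2.57-fold), E2f1 (1.95-fold) and Cdk2 (1.74-fold) were called higher, Ccne2 was called lower (log2 -1.23), and Hinfp, Nfya and Nfyb were not called. Npat, Casp8ap2 and Pou2f1, known as activators of histone transcription, were lower in nuclear RNA. Npat had 0.761 RPKM with dox and 2.28 RPKM without dox (log2 -1.58), Casp8ap2, which works at histone locus bodies, 0.863 and 3.01 RPKM (log2 -1.80), and Pou2f1, which encodes OCT1, 1.65 and 6.57 RPKM (3.99-fold lower). All 3 fell in total RNA as well. Among 19 factors of histone mRNA decay and translation 7 rose and 7 fell in nuclear RNA (median 0.17) and 6 and 6 in total RNA (median 0.26), beside the shares of all genes just given. Among them Lsm4 was 2.78-fold higher and Smg1, a kinase of nonsense-mediated decay, stood at 1.43 RPKM with dox and 5.76 RPKM without dox.

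Histone chaperones rose for 16 and fell for 5 of 26 in nuclear RNA (median log2 0.54), and 15 and 5 in total RNA (median 0.61), where 43.1% and 26.3% of all tested genes were higher and lower in nuclear RNA and 41.5% and 22.8% in total RNA. Chaf1b, a subunit of the chromatin assembly factor CAF-1, rose 3.30-fold in nuclear and 3.17-fold in total RNA. Atrx, which deposits H3.3 with DAXX, fell most, with 1.94 RPKM with dox and 12.5 RPKM without dox in nuclear RNA (log2 -2.68, limma adjusted p = 2.09e-08). Genes of S phase rose for 34 and fell for 2 of 40 in nuclear RNA (median 1.26) and 32 and 1 in total RNA (median 1.23), beside the same shares of all genes. Rpa2, of the single-strand DNA binding complex, rose 4.12-fold and Mcm5, of the replicative helicase, 3.88-fold in nuclear RNA, and Pola1, the catalytic subunit of DNA polymerase alpha, fell to 4.26 RPKM with dox, against 11.3 RPKM without dox.

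Replication-independent histone genes, which give polyadenylated mRNAs through the cycle, rose for 11 of 11 tested in nuclear RNA (median log2 1.31) and 10 of 11 in total RNA (median 0.85), where 43.1% and 41.5% of all tested genes rose. H2afx, whose transcripts are known in both a stem-loop and a polyadenylated form, led them. It had 224 RPKM with dox and 36.9 RPKM without dox in nuclear RNA, and 197 and 45.5 RPKM in total RNA with and without dox (log2 2.60 and 2.12, SE 0.10; limma adjusted p = 4.22e-10 and 4.91e-09). H3f3b, a gene for H3.3, rose 2.59-fold in nuclear and 2.51-fold in total RNA, and H2afz, for H2A.Z, 2.87-fold and 2.03-fold. The smallest nuclear rise of any tested replication-dependent gene (2.23) thus lay below that of H2afx and above that of the other 10.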

How the data were processed

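The members and the gene lists were chosen with earlier results of these data known. Reads of rRNA-depleted directional libraries were processed with bcl2fastq 2.17.1 and TopHat on mm10, per the submitters' processing notes, and RPKM values and an ANOVA were made in Partek 6.6, per the file headers; annotation and counting are not given in the sources used here. The deposited table holds group means on the log2 scale, log2(RPKM + 0.001), with the authors' ANOVA p-values and q-values. The deposited ratio is the linear form of that difference of means, and the authors' signed fold change is used here as a score that repeats it. Means were taken back to RPKM less 0.001, so they are geometric.

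Residual standard deviations were recovered from the deposited p-values: with 6 degrees of freedom both p-values gave the same one for 99.96% of 16338 genes. This and genes present in 1 group point to 10 of the 12 libraries (3 nuclear dox, 2 nuclear no dox, 2 total dox, 3 total no dox), with 10.3 to 18.9 M reads from single-read steps; which 2 are left out is unknown. Because no value of a single library was given, the planned count or single-library tests were replaced by limma 3.58.1 (R 4.3.3) on means and recovered SDs, with a variance trend on level, for 5 contrasts and 10197 genes of at least 1 RPKM in 1 group; calls had a Benjamini-Hochberg adjusted p below 0.05. The procedure was tested on simulated data. Where some libraries hold no reads, the pseudocount stretches a fold. Sequences and positions came from GENCODE M21 and RefSeq GRCm38.p6 (both mm10); RPKM lengths are the authors'. Genes named are, by class, the highest member, those with the largest and smallest dox differences, those not called and the extremes between fractions. Also named are all H1 genes, clusters 3 and 4 and genes never at 1 RPKM. Of the leading called genes of each list only some are named. Hist2h2ac, Hist1h2ba, Hist1h2bl, Hist1h2af and the genes listed by shared protein were added after their values were seen. So were Nfyc, E2f1, Cdk2, Ccne2, Hinfp, Nfya and Nfyb. Filters, scalings, length, variance models, the authors' q-values and shared sequence were varied.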

Additional observations from a re-analysis of the deposited data

How the results depend on the processing

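The counts of histone genes called higher with dox stayed at 63 to 64 in nuclear and 63 to 66 in total RNA under every filter, scaling, length or variance setting run, with 0 lower. Across those settings 22% to 65.2% of all genes tested were called higher in nuclear RNA and 20.8% to 63.2% in total RNA. With 1 gene of each fixed-ratio pair the histone counts were 61 and 62 of 63. Among genes with under 50% of their 50-base words shared, they were 32 and 33 of 34. For the larger rise in nuclear RNA, 0 calls became 27 (at least 5 RPKM), 5 (mean of groups at least 1 RPKM) and 2 (centred means). Of all genes tested, 2.23%, 0.221% and 0.0588% were called larger in nuclear RNA under these 3 settings. Calls of nuclear against total RNA without dox numbered 21, and 10 (4 higher, 6 lower) with no filter, with no variance trend and with no moderation. Under those 3 settings 2.46% to 3.75% of all genes were called higher and 17.1% to 32.1% lower. The balance reversed among genes with under 50% shared words (10 calls of 34, 7 higher and 3 lower). It also reversed with centred means (18 calls, 16 higher) and with quantile normalization (30 calls, 29 higher). All genes had 11.3% higher and 15.4% lower with centred means, and 18.2% higher and 17.7% lower with quantile normalization. With dox, 47 calls (5.84% of all genes higher) became 24 with the length trend removed (5.53% of all genes higher). They became 26 of 34 among genes with under 50% shared words. No single gene named in a dox comparison reversed under these settings. Nfyc, E2f1, Cdk2, Ccne2, Hinfp, Nfya and Nfyb were not part of that check. No paired analysis was possible because the table gives group means with no replicate numbers; for the same reason leaving out single libraries and a pseudocount on single libraries were not run. The pair and shared-word alternatives were chosen after seeing the data. Adding 1 RPKM to the means took the nuclear difference of Hist1h4m to 1.60 and of Hist3h2ba to 1.93. The cause of these changes was not tested. Depth limits Hist1h1t, Hist1h2aa, Hist1h2ao, Hist2h2be and Hist3h2ba, and shared words limit Hist1h2ao as well.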
